A study of Homo sapiens with 6 samples.

Results

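Metallothioneins are small cysteine-rich proteins that bind zinc and copper, and the genes described here are 7 members of that family together with 2 regulators of cellular zinc, MTF1 and SLC30A1. Of these 9 genes, 8 had a row among the 15706 genes of the deposited table: the metallothioneins MT1E, MT1F, MT1L, MT1M, MT1X and MT2A, and both regulators. MT1G had no row among those used here and was not analysed. The members were chosen by symbol, with the knowledge from an earlier look at the same libraries that genes of the long arm of chromosome 16, where the metallothioneins lie, were lower in the knockout. The difference between knockout and control therefore took part in the choice, and for the members it is given as a description. Where members are counted among the genes called in the fit over all genes, the count stands beside the share of all genes and supports nothing. All 8 passed the filter on low values, a mean of at least 10 normalized counts over all libraries.

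The RNA came from MDA-MB-231 cells, a triple-negative breast cancer cell line, grown in DMEM with serum and not treated. The control group is 3 libraries with a non-targeting guide RNA (sgNT, labelled as wild type), and the knockout group is 3 libraries with a guide against MLL3 (sgMLL3), the histone H3 lysine 4 methyltransferase also named KMT2C. The labels call the libraries of each group biological replicates 1 to 3. They do not say whether the guide was the same in the 3 libraries of a group or whether cells were clones or pools. Nor do they say whether separate cultures stand behind the numbers, so the spread between libraries may in part be technical.

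The thiols of metallothionein cysteines hold metal ions in clusters, which buffers free zinc and copper and takes up toxic metals such as cadmium. MTF1, a zinc finger transcription factor, enters the nucleus when zinc rises and binds metal response elements, short motifs in the promoters of metallothioneins and of SLC30A1. SLC30A1, also called ZnT1, carries zinc out of the cell across the plasma membrane. Glucocorticoids and oxidants also induce metallothioneins in many cells. MT2A is commonly the most abundant metallothionein outside the brain, and MT1L is annotated as a transcribed pseudogene.

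The metallothionein members sit in a row over 76.0 kb of chromosome 16 (GRCh38, GENCODE 29, all on the plus strand). MT2A spans 56608199 to 56609497, MT1L 56617476 to 56618818, MT1E 56625475 to 56627112, MT1M 56632233 to 56633986, MT1F 56657694 to 56660698 and MT1X 56682424 to 56684196. The 5 coding members each have 3 exons in their principal transcript and an open reading frame of 61 codons before the stop, 20 of which encode cysteine. The coding sequences, from the GENCODE 29 transcripts, are printed because they show both the cysteine spacing and how alike the copies are that the reads had to be told apart by. Capitals mark the cysteine codons, TGC or TGT in frame.
MT2A: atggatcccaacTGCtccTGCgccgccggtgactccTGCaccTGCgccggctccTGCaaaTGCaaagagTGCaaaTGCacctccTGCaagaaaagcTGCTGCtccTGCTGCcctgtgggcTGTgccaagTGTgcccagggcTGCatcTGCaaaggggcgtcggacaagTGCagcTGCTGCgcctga
MT1E: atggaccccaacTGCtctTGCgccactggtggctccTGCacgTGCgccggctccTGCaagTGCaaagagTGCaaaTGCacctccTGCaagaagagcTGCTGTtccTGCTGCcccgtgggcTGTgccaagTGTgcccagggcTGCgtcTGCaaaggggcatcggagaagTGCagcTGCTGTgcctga
MT1X: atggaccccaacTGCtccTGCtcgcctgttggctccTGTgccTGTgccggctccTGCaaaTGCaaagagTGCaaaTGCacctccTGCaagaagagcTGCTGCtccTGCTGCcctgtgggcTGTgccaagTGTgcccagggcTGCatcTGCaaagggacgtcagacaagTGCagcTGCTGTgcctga
MT1F: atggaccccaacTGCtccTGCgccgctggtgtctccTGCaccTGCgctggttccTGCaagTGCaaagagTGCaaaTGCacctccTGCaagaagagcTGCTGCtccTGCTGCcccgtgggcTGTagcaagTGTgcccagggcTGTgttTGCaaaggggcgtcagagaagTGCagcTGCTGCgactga
MT1M: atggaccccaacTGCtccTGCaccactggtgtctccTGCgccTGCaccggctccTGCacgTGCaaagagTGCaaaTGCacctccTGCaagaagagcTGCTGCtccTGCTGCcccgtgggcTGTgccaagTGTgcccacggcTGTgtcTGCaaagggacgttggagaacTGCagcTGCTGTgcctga

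All 5 coding sequences have cysteine codons at the same 20 positions. Over the 186 bases including the stop, pairs of members differed at 14 to 21 positions, MT1F and MT1X being the least alike at 88.7% identity and 3 pairs, MT1E with MT1M, MT1E with MT2A and MT1X with MT2A, reaching 92.5%. Reads can still be placed where transcripts differ. Of all stretches of 50 bases in the principal transcript, 4.88% of those of MT2A and 5.34% of those of MT1E also occurred in a transcript of another gene, as did 3.59% for MT1F, 4.42% for MT1L and 7.05% for MT1M. For MT1X the share was 45.1%, with MT2A and several pseudogenes among the 9 genes that hold such stretches. How the authors' counting treated reads that fit several copies is not given in the sources used here, so the level of MT1X in particular is uncertain.

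Promoter sequences from RefSeq (GRCh38.p14) matched 4 members: MT2A, MT1X, MTF1 and SLC30A1. The core of the metal response element was searched as TGCACNC or TGCGCNC on both strands over the 250 bases before the start site. The 3 promoters with a match are printed in transcript direction, with matches in capitals, to show where the matches lie. The MT2A window is chr16:56608334-56608583 on the plus strand, that of MT1X chr16:56682220-56682469 on the plus strand, and that of SLC30A1 chr1:211579162-211579411 on the minus strand.
MT2A: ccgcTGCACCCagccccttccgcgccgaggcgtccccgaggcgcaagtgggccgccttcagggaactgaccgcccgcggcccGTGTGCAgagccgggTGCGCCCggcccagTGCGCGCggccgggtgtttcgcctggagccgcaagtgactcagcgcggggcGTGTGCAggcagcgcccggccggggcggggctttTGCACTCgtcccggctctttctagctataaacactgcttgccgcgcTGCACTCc
MT1X: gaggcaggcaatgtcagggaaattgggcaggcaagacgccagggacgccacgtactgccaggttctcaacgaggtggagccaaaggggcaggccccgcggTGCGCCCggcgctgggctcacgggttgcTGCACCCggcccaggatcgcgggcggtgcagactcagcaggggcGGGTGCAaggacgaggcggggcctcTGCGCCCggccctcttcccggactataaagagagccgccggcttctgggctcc
SLC30A1: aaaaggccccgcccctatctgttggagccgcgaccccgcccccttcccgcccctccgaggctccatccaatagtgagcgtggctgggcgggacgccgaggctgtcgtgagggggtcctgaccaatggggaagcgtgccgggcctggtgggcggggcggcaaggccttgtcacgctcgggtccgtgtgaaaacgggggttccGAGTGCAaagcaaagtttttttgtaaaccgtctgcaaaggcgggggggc

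The MT2A window held 7 matches, MT1X 4, SLC30A1 1 and MTF1 0. Among 35116 promoter windows of the same length, 24.8% held at least 1 match, 0.370% at least 4 and 0.0313% at least 7. A match is a run of letters and not evidence of binding. These libraries measured RNA, and no binding data were used.

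Levels below are normalized read counts, the reads of a gene divided by 1 size factor per library. Dividing by the size of 1 step gave whole reads in every library, 41240265 to 49514464 per library in the listed genes. Fold changes are log2(normalized count + 1), knockout minus control, with the standard error (SE) of limma fitted over 14618 genes. The targeted gene, KMT2C, stood at 1334 ± 68.5 normalized counts in control and 1506 ± 161 in knockout libraries (SD, n = 3 each), so its transcript level gives no check of the label. Of the 9 markers of the line all had a row, VIM, CD44 and EGFR among them. Of 6 genes listed as low in the line, ESR1, FOXA1 and PGR had no row and CDH1 was below the filter. ERBB2 and GATA3, also on that list, were read at means of 5388 and 545 normalized counts over all libraries, at the 87.1 and 40.7 percentiles of the tested genes, which goes against their place on it.

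MT2A and MT1E, which made up 98.5% to 99.1% of the summed metallothionein counts of a library, were both lower in every knockout library than in any control library. MT2A was read at 30766, 33151 and 37983 normalized counts in control replicates 1, 2 and 3, and at 27616, 27722 and 27649 in knockout replicates 1, 2 and 3. The groups did not overlap, control replicate 3 was the highest library, and the knockout libraries lay very close together. Their spread, 0.197% of the mean, was smaller than the counting error of 0.565% to 0.618% that the recovered reads of a single knockout library carry, so that this SD understates the error. The group means were 33967 ± 3677 and 27662 ± 54.5 (SD, n = 3 each), and the log2 fold change was -0.29 (SE 0.084).

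MT1E was read at 8521, 9088 and 9145 normalized counts in the control libraries and at 7541, 7220 and 6584 in the knockout libraries. Again all control libraries were above all knockout libraries, here by at least 980 counts, and the lowest value was that of knockout replicate 3. The means were 8918 ± 345 and 7115 ± 487 (SD, n = 3 each), 20.2% less in the knockout group, with a log2 fold change of -0.33 (SE 0.080). In bulk RNA, fewer cells that express a gene and less RNA per cell cannot be told apart.

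MT1X and MT1F, low-abundance members of the same cluster, did not follow MT2A and MT1E. MT1X stood at 250, 235 and 236 normalized counts in the control libraries and at 266, 306 and 252 in the knockout libraries. The knockout libraries were all above the control libraries, but knockout replicate 3 exceeded control replicate 1 by only 2.4 counts. Its means were 240 ± 8.36 and 275 ± 27.7 (SD, n = 3 each), and its log2 fold change was 0.19 (SE 0.15). MT1F stood at 165, 151 and 151 counts in the control libraries and at 152, 164 and 230 in the knockout libraries. Its groups overlapped, and knockout replicate 3 alone lay far above the rest. The MT1F means were 156 ± 7.95 and 182 ± 42.1, and its log2 fold change of 0.20 (SE 0.19) fell to 0.022 without knockout replicate 3.

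The 2 least abundant members, MT1M and the pseudogene MT1L, were too thinly read to place. MT1M was read at 23.7, 34.4 and 18.4 normalized counts in the control libraries and at 13.7, 10.6 and 20.2 in the knockout libraries, from 12 to 32 reads per library. Knockout replicate 3 lay above control replicate 3, so the groups overlapped, and the log2 fold change of -0.74 had an SE of 0.43. MT1L was read at 17.2, 27.9 and 29 counts in the control libraries and at 26.4, 28.4 and 26.6 in the knockout libraries, with a log2 fold change of 0.16 (SE 0.36). Control replicate 1 was the low library, and without it the sign of the MT1L difference turned, to -0.067.

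Neither regulator separated the groups. MTF1, the metal-sensing activator, was read at 590, 629 and 684 normalized counts in the control libraries and at 753, 656 and 686 in the knockout libraries, with means of 635 ± 47.0 and 698 ± 49.8 (SD, n = 3 each). Its groups overlapped, since control replicate 3 was above knockout replicate 2, and the log2 fold change was 0.14 (SE 0.11). SLC30A1, the zinc exporter, was read at 2053, 1873 and 1768 counts in the control libraries and at 1929, 1996 and 1972 in the knockout libraries. The control libraries spanned the whole range of the knockout group. Its log2 fold change was 0.053 (SE 0.091).

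**Figure D1:**
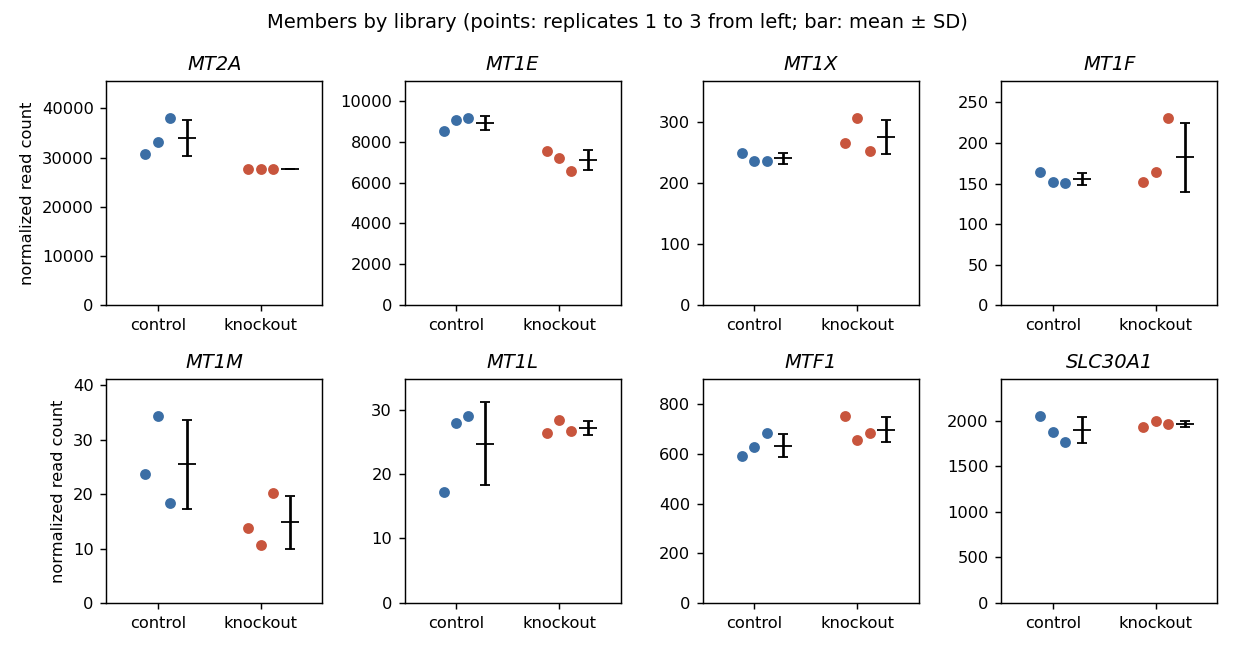
Normalized read counts (y axis, from 0) of the 8 members in 3 control and 3 knockout libraries (points, replicates 1 to 3 from left), with the mean and SD as a bar. The groups separate for MT2A and MT1E, where knockout is lower, and narrowly for MT1X, where it is higher.

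Over all genes tested, limma called 33.2% at a Benjamini-Hochberg adjusted p under 0.05, 18.9% higher and 14.4% lower in the knockout. Of the 8 members 2 fell among the genes called lower, MT2A and MT1E, and 0 among those called higher. The groups did not overlap in 46.3% of all genes tested, 23.9% with knockout higher and 22.4% with knockout lower. Among the members this held for MT2A and MT1E, with knockout lower, and for MT1X, with knockout higher. On the log2 scale the median difference was 0.096 over the 8 members and -0.064 over the 6 metallothioneins, against -0.017 over all genes. Since the contrast took part in the choice of members, nothing is read from these counts.

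The summed counts of the 9 markers of the line lay between 209703 and 221295 in control and between 198374 and 206105 in knockout libraries. For the genes listed as low in the line the sums were 6190 to 6694 and 5009 to 5792. Summed markers of other cell types were likewise lower in every knockout library than in any control library, so this direction was not particular to them. The summed counts of 6 fibroblast and endothelial markers lay between 1260 and 1449 in control and between 937 and 1030 in knockout libraries, with 3 of 5 tested markers called lower (COL1A1, KDR and PDGFRB) and 0 higher, against 14.4% lower among all genes. With the trend along GC content and transcript length removed, as described below, 1 of 5 was lower (KDR), against 5.95% of all genes. The summed counts of 6 leukocyte markers lay between 896 and 1112 in control and between 604 and 755 in knockout libraries. Of these 6, 1 was called lower (CD14) and 0 higher, and the groups overlapped in each. CD14 was not called when any library other than control replicate 1 was left out (adjusted p by limma 0.054 to 0.161), and with the trend removed the 1 marker called lower was PTPRC instead. CDH5, DCN, FAP, LUM and PDGFRA of the fibroblast and endothelial list had no row, nor had CD4, CD68 and MS4A1 among others of the leukocyte list. The part of other cell types in the metallothionein difference was not tested.

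Per kilobase of principal transcript, a scale on which levels of different genes can be compared, the order of the 8 genes was the same in all 6 libraries. MT2A stood first at 43214 mean normalized counts per kilobase in control and 35194 in knockout libraries, and MT1E second at 12667 and 10107. MT1X (534 and 611), SLC30A1 (347 and 359) and MT1F (226 and 264) came next. MTF1 (79.6 and 87.6), MT1L (60.1 and 66.0) and MT1M (30.7 and 17.9) were the lowest. In knockout replicate 3, MT1F at 334 came close to SLC30A1 at 360.

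Ratios of 2 genes within a library do not depend on its size factor. The trend along GC content described below was not removed from them. MT2A and MT1X differ in GC content (63.0% and 50.9%, principal transcripts). The ratio of MT2A to MT1E was 3.8 ± 0.30 in control and 3.90 ± 0.27 in knockout libraries (SD, n = 3 each), a difference smaller than the spread between libraries. The ratio of MT2A to MT1X lay between 123 and 161 in control and between 90.7 and 110 in knockout libraries. MT1X therefore took a larger share of the metallothionein counts in each knockout library, 0.726% to 0.862% against 0.496% to 0.629% in control libraries. All 6 metallothioneins summed to 43331 ± 3949 counts in control and 35277 ± 453 in knockout libraries, which is 0.0954% and 0.0803% of all listed counts.

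**Figure D2:**
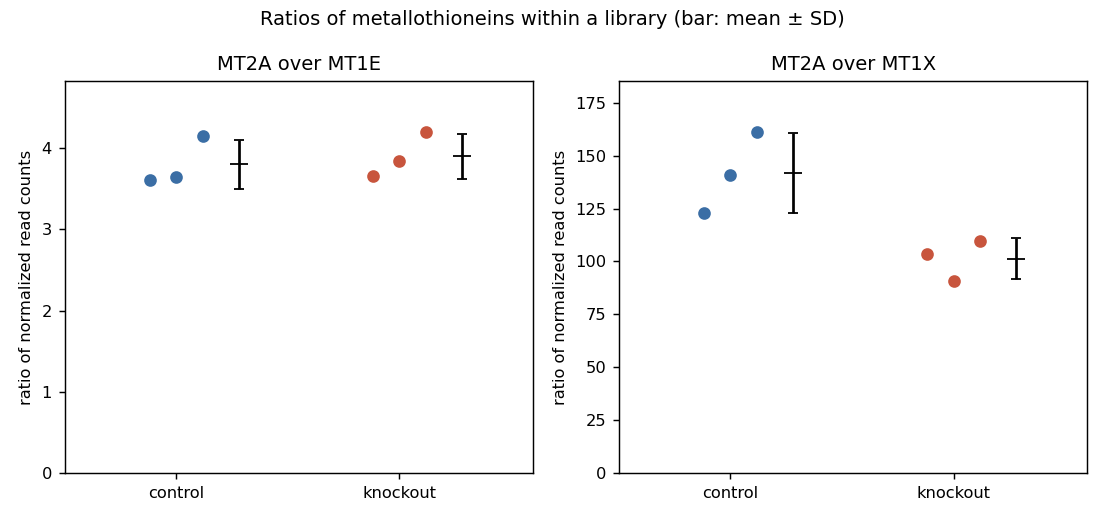
Ratios of normalized read counts (y axis, from 0) within each of 3 control and 3 knockout libraries (points), with mean and SD as bars. MT2A over MT1E is alike in both groups at 3.8 and 3.90, while MT2A over MT1X is between 90.7 and 110 in knockout and between 123 and 161 in control libraries.

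In these libraries the difference between the groups followed base composition, which touches every member. Genes rich in AT stood higher in knockout libraries and genes rich in GC lower. Spearman's rho across genes, which are not independent replicates, between GC content and a library's deviation from the mean of all 6 was 0.316 to 0.648 in control libraries and -0.68 to -0.239 in knockout libraries. Beside MT1E (53.5% GC, longest transcript), 909 tested genes within 1 point of GC content gave a median of -0.16 on the log2 scale, with 19.3% called lower. Beside MT2A (53.9% GC) the median of such genes was -0.17, and beside MT1X (53.7% GC) -0.17, on the other side of 0 from MT1X itself. SLC30A1, with 38.0% GC, stood among 940 genes with a median of 0.44, of which 63.7% were called higher, whereas its own value was 0.053.

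**Figure D3:**
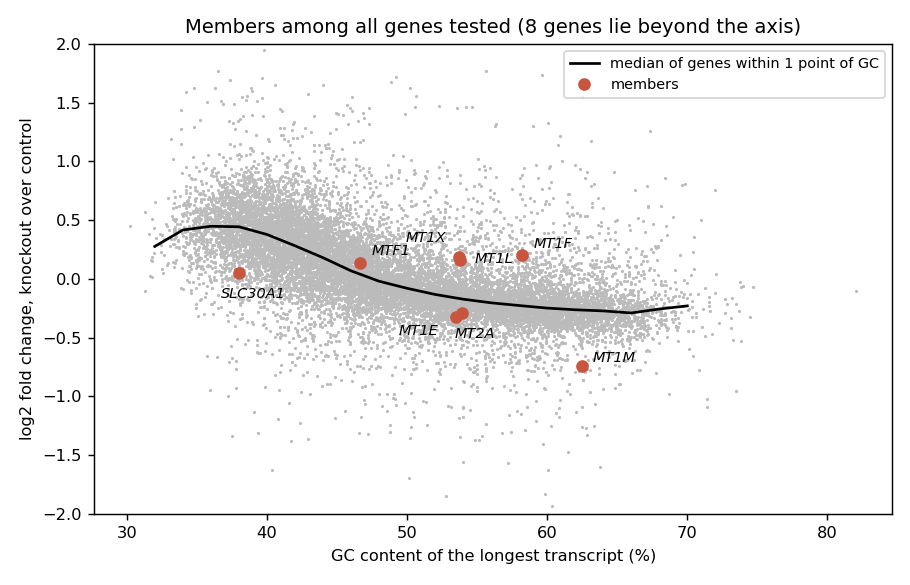
Knockout minus control on the log2 scale (y axis) against the GC content of the longest transcript in percent (x axis) for the tested genes (grey points), with the median of genes within 1 point of GC (line) and the 8 members (red). MT2A and MT1E lie a little below the line, MT1X, MT1L and MT1F above it, and SLC30A1, at 0.053, well below a median of 0.44.

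With the trend along GC content and transcript length removed from each library by splines, 10.0% of 14598 genes were called, 4.08% higher and 5.95% lower, and the values of the members shifted. MT2A then stood at -0.098 (SE 0.063) and MT1E at -0.14 (SE 0.063), and neither was called. MT1X stood at 0.36 (SE 0.13), MT1F at 0.44 (SE 0.17), MT1L at 0.35 (SE 0.34) and MT1M at -0.46 (SE 0.41), all uncalled. SLC30A1 turned from 0.053 to -0.37 (SE 0.070) and was the 1 member called, lower. MTF1 stood at 0.044 (SE 0.10). Without control replicate 1 the members called became 5, MT2A, MT1E and SLC30A1 lower and MT1X and MT1F higher. Calls over all 14598 genes then rose as well, to 3605 from 1463 with all libraries. Without knockout replicate 1 or 2 the members called became 0, and calls over all genes fell to 377 and 418.

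The longest transcripts of MT1F and MT1X are models with retained introns (1573 and 1727 bases, against 690 and 450 for the principal transcripts), so the trend was also removed with the principal transcript of every gene. That alternative, chosen after seeing the data, called 9.38% of genes, 3.98% higher and 5.4% lower. MT2A then stood at -0.0012 (SE 0.062) and MT1E at -0.054 (SE 0.073), next to 0. The GC content of MT2A and MT1E was 63.0% and 59.5% by principal transcripts, against 53.9% and 53.5% by longest transcripts. For MT1X it was 50.9% against 53.7%. The medians of genes of similar GC content given above go by the longest transcripts. SLC30A1 stayed at -0.39 (SE 0.071), MT1X at 0.31 (SE 0.12) and MT1F at 0.48 (SE 0.17). The size of the MT2A and MT1E difference thus depended on whether and how the trend was removed, while MT1X and MT1F were on the upper side in each of these analyses.

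**Figure D4:**
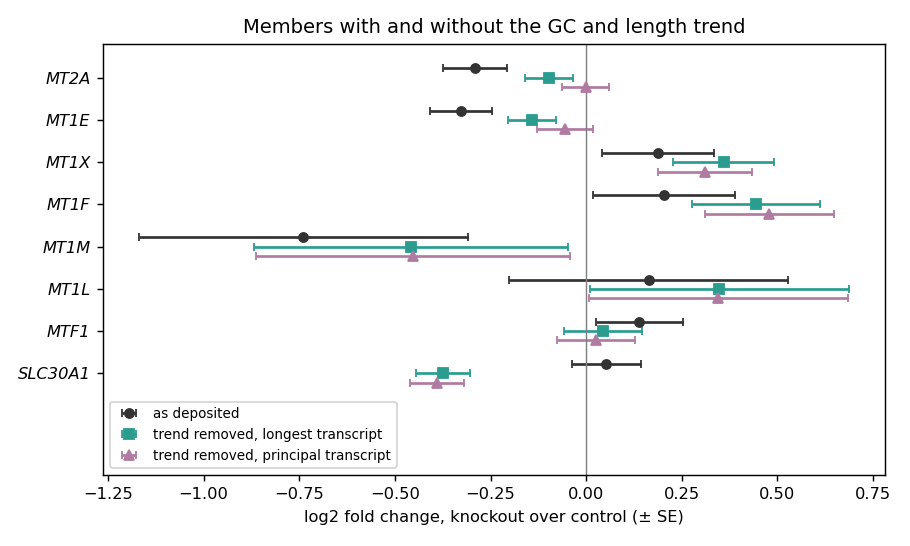
Knockout minus control on the log2 scale, with SE bars (x axis), for each member (y axis), as deposited (circles), with the GC and length trend removed by longest transcripts (squares) and by principal transcripts (triangles). MT2A moves from -0.29 to -0.098 and -0.0012, and SLC30A1 from 0.053 to -0.37 and -0.39.

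The genes next to the cluster did not share 1 direction. On the proximal side, GNAO1, a G protein alpha subunit, stood at 1753 ± 46.7 normalized counts in control and 958 ± 55.9 in knockout libraries (SD, n = 3 each), a log2 difference of -0.87 (SE 0.095). NUDT21, an mRNA cleavage factor subunit, stood at 0.38 (SE 0.090), OGFOD1, a ribosomal protein hydroxylase, at 0.18 (SE 0.089) and BBS2, a subunit of the BBSome, at 0.18 (SE 0.10). On the distal side, the nucleoporin NUP93 stood at -0.19 (SE 0.079), the pseudogene RPS24P17 at 0.81 (SE 0.59), HERPUD1, a stress gene of the endoplasmic reticulum, at 0.037 (SE 0.13), CETP, a lipid transfer protein, at 0.37 (SE 0.38) and NLRC5, an activator of MHC class I genes, at -0.40 (SE 0.099). The metallothioneins thus lie between NUDT21, OGFOD1 and BBS2, on the upper side, and NUP93, on the lower side. With the trend removed by longest transcripts GNAO1 stood at -0.68, NUP93 at -0.28 and NLRC5 at -0.23. NUDT21 then turned to -0.046, OGFOD1 to -0.093 and BBS2 to -0.15. By principal transcripts BBS2 stayed on the upper side at 0.13, and NUP93 stood at -0.12 and was not called. GNAO1 (-0.75), NLRC5 (-0.23), NUDT21 (-0.062) and OGFOD1 (-0.12) lay below 0 in both versions.

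Within 1 Mb of the cluster 26 other genes were tested, the metallothionein genes MT1A (-0.24, SE 0.19) and MT1JP (-0.33, SE 0.28) among them. Of these 26, 10 were called lower (38.5%) and 1 higher, with a median of -0.24, and with the trend removed 5 and 0. Among all genes 14.4% were called lower and 18.9% higher, and with the trend removed 5.95% and 4.08%. Over the long arm of chromosome 16, 90 of 296 other genes were called lower (30.4%) and 19 higher, with a median of -0.21. On the short arm 111 of 353 were lower (31.4%) and 16 higher, with a median of -0.23. The arms are richer in GC than the median gene (48.5%), at medians of 52.9% and 57.6%. With the trend removed 37 of 296 genes of the long arm and 17 of 353 of the short arm were lower, against 5.95% of all genes. Those higher were 3 and 7, and the medians were -0.11 and -0.063. Without 1 library the number called among the 26 as deposited was lowest without knockout replicate 1 (4) or 2 (5), and 7 without control replicate 2 or 3. In the same order these omissions called 2143, 2499, 3680 and 3154 of all genes, against 4859 with all libraries. The region took part in the choice of members, so these counts are a description.

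**Figure D5:**
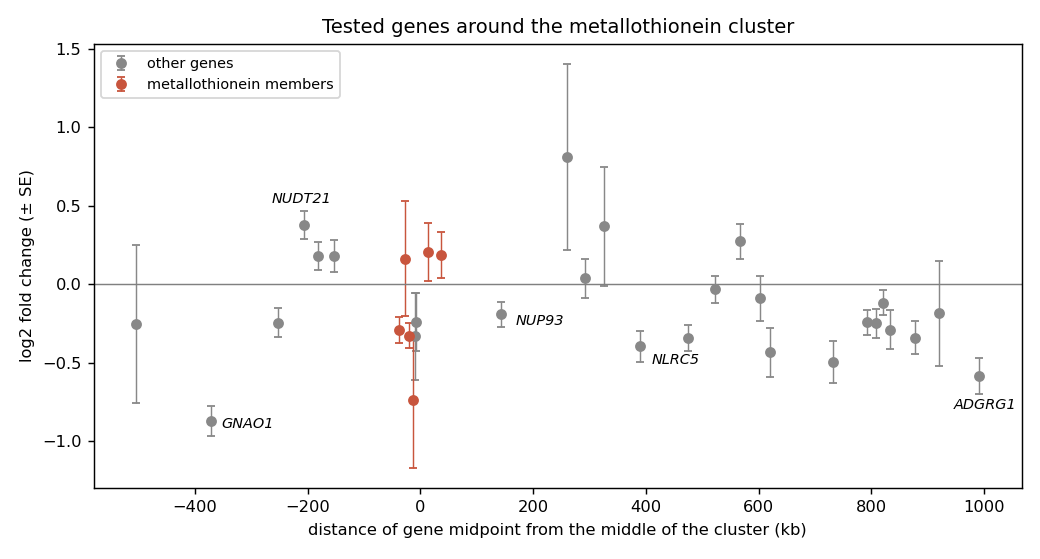
Knockout minus control on the log2 scale, with SE bars (y axis), of the tested genes within 1 Mb of the metallothionein cluster, by the distance of the gene's midpoint from the middle of the cluster in kilobases (x axis). The 6 metallothionein members (red) lie on both sides of 0, from -0.74 for MT1M to 0.20 for MT1F. Along the x axis they lie between NUDT21, which stood at 0.38, and NUP93, which stood at -0.19.

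Other zinc transporters were measured to see whether the wider zinc system differed. They comprise the SLC39A importers, which bring zinc into the cytosol, the SLC30A exporters, which remove it, and TMEM163. Of 18 tested, 7 were higher and 4 lower in the knockout, with a median of 0.22, against 18.9% higher and 14.4% lower among all genes. SLC39A10, an importer of the plasma membrane, rose from 1869 ± 92.1 to 2740 ± 163 normalized counts (SD, n = 3 each), a log2 difference of 0.55 (SE 0.089, adjusted p = 0.00027 by limma). SLC39A6, its close relative, rose from 2603 ± 144 to 3684 ± 219 (0.50, SE 0.086, adjusted p = 0.00045). SLC39A11 fell from 693 ± 6.19 to 506 ± 26.2 (-0.45, SE 0.11, adjusted p = 0.006) and SLC39A3 from 1870 ± 130 to 1467 ± 115 (-0.35, SE 0.097, adjusted p = 0.011). With the trend removed 2 were higher and 1 lower, against 4.08% and 5.95% of all genes, and the median turned to -0.0099. SLC39A6 (0.20, adjusted p = 0.037) and SLC39A11 (-0.39, adjusted p = 0.017) remained called, whereas SLC39A10 did not (0.12, adjusted p = 0.224). As deposited, 7 transporters were called without control replicate 3 or knockout replicate 1 and 6 without knockout replicate 2. In the same order 3154, 2143 and 2499 of all genes were called, against 4859 with all libraries. After trend removal, 0 were called without control replicate 2 or any one of the knockout libraries, 2 without control replicate 3 and 5 without control replicate 1. Of all genes 3605 were called without control replicate 1 and 377 to 885 in the other omissions, against 1463 with all libraries.

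Genes of copper handling, the other main metal of metallothioneins, counted 3 higher and 1 lower of 14, with a median of 0.024. These shares of 21.4% and 7.14% stand against 18.9% higher and 14.4% lower among all genes. ATP7A, a copper pump of the Golgi, rose from 317 ± 24.3 to 610 ± 31.8 normalized counts (SD, n = 3 each; 0.95, SE 0.12, limma adjusted p = 6.2e-05). After trend removal its difference was 0.51 (adjusted p = 0.0092, and 0.00054 to 0.060 when 1 library was left out). STEAP2, a metalloreductase, rose by 0.56 (SE 0.17, adjusted p = 0.017), and CCS, which loads copper onto superoxide dismutase, fell by 0.36 (SE 0.099, adjusted p = 0.012). After trend removal both missed the threshold (adjusted p = 0.693 for STEAP2 and 0.425 for CCS). The list then counted 1 higher and 1 lower, against 4.08% and 5.95% of all genes. As deposited but without knockout replicate 1 or 2, 1 gene of the list was called. Of all genes 2143 and 2499 were then called, against 4859 with all libraries.

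Antioxidant and iron storage genes, many of which respond to the same stresses as metallothioneins, counted 5 higher and 5 lower of 20, with a median of -0.074. These shares of 25% each stand against 18.9% higher and 14.4% lower among all genes. NFE2L2, the oxidant-responsive factor NRF2, rose from 2334 ± 358 to 3521 ± 193 normalized counts (SD, n = 3 each; 0.60, SE 0.10, limma adjusted p = 0.00044), and its difference after trend removal, 0.51, still passed (adjusted p = 0.004, at most 0.042 when 1 library was left out). The transferrin receptor TFRC rose by 0.45 (SE 0.080, adjusted p = 0.00059). FTL, the ferritin light chain, fell by 0.39 (SE 0.078, adjusted p = 0.0015) and the glutathione peroxidase GPX1 by 0.36 (SE 0.077, adjusted p = 0.0024). After trend removal TFRC, FTL and GPX1 missed the threshold (adjusted p = 0.215, 0.114 and 0.39). The list then counted 2 higher (NFE2L2 and GCLC) and 2 lower (NQO1 and TXN), against 4.08% and 5.95% of all genes. That number of 4 became 10 without control replicate 1 and 2 without any one of the knockout libraries. Calls over all genes went from 1463 to 3605 without control replicate 1 and to 377 to 612 without a knockout library.

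Genes whose level ran most like the mean log2 level of the 6 metallothioneins were sought among 12448 genes with a mean of at least 50. Over the 6 libraries the best matches were SRSF4 (Pearson's r = 0.988), TBC1D20 (0.976), LOC101928868 (0.975), COG1 (0.974) and ATG16L1 (0.973). With every value set relative to its group mean they were BDNF-AS (0.986), BLOC1S4 (0.986), ATG7 (0.986), SRSF4 (0.983) and RNPS1 (0.98). BDNF-AS is an antisense gene, whose reads cannot be told from those of its partner where counting ignores strand. These r values are the highest of 12448 genes over only 6 libraries, so selection alone can give values this high, and no link was tested. The r values describe 6 libraries that share their depth and GC trend, and the thinly read MT1M and MT1L weigh as much in the mean as MT2A. Among the members themselves, the log2 levels of MT2A and MT1E had r = 0.869 over the 6 libraries and 0.401 relative to group means. MT1E and MT1F ran opposite to each other, at -0.753 and -0.949, with knockout replicate 3 lowest in MT1E and highest in MT1F.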

How the data were processed

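The authors deposited 1 table with a normalized count per library, a signal made by dividing reads by 1 size factor per library, and, per the file headers, a mean signal, a log2 fold change with its standard error, a Wald score, and p-values. Per the submitters' processing notes the tools were DESeq2 1.30.1, featureCounts 1.5.0, FastQC and STAR 2.4.0, and the build GRCh38.p13. No source used here gives the strand setting, the annotation release or the handling of reads that fit several genes.

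Whole reads were recovered (100% of values within 0.01 of a whole number), 41240265 to 49514464 per library. Groups were compared in R 4.3.3 on log2(value + 1), a pseudocount of 1, by limma 3.58.1 with its variance trend, over 14618 genes with a mean of at least 10, p-values adjusted after Benjamini-Hochberg, called under 0.05. The recovered reads went through DESeq2 1.42.0 and edgeR 4.0.16 as alternatives. The trend was removed with natural splines of 5 terms each of GC content and log2 length of the longest GENCODE 29 transcript (14598 genes). Scripts were tested on simulated data. The members and lists were chosen with earlier results of these data known. Named genes are all members, the 5 nearest tested genes on each side of the cluster, up to 2 genes per direction and list with the smallest adjusted p, and the 5 genes most like the members. A gene these rules name is not reported here. Alternatives were other pseudocounts, filters and scalings, a replicate block, trend removal, and leaving out each library. Removing the trend by principal transcripts, with library means kept, or without each library was added after seeing the data.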

Additional observations from a re-analysis of the deposited data

How the results depend on the processing

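Pseudocounts of 0.5 and 5, other filters, edgeR, DESeq2 and the replicate block left the number of members called at 2, and quantile normalization, under which MT2A lost its call, left 1. The replicate block called 6265 genes instead of 4859. Deviations of same-numbered libraries correlated at 0.066, 0.0063 and 0.129, and those of differently numbered libraries at -0.099 to 0.027. The labels name no shared batch, so the main analysis did not pair the libraries. Whether the numbers pair them was not settled. With the trend removed, or removed with the replicate block, with library means kept or by principal transcripts, the genes called numbered 1463, 1313, 1390 and 1369, of which 40.7%, 41.1%, 59.8% and 42.4% were higher, against 56.8% in the main analysis. In the same order the members called were 1, 1, 1 and 1, the genes near the cluster 5, 5, 2 and 2, the zinc transporters 3, 2, 3 and 1, the copper genes 2, 2, 3 and 1, the antioxidant genes 4, 3, 4 and 4, the heat shock genes 2, 2, 2 and 1, and the glucocorticoid genes 3, 3, 2 and 2. NUDT21 turned to -0.046, -0.046, -0.0041 and -0.062 and ANXA1 to -0.054, -0.054, -0.012 and -0.081. By principal transcripts HSPH1 stood at -0.011 and NR3C1 at -0.0047.

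Leaving out 1 library gave 2143 to 6168 genes, 1 to 2 members, 4 to 11 genes near the cluster, 6 to 11 zinc transporters, 1 to 5 copper genes, 8 to 13 antioxidant genes, 7 to 9 heat shock genes and 5 to 9 glucocorticoid genes. The number of genes fell to 3154 without control replicate 3, 2143 without knockout replicate 1 and 2499 without knockout replicate 2. MT2A was not called without control replicate 3 or knockout replicate 1 or 2. With the trend removed as well, these ranges were 377 to 3605 genes, 0 to 5 members, 1 to 10 genes near the cluster, 0 to 5 zinc transporters, 1 to 6 copper genes, 2 to 10 antioxidant genes, 0 to 4 heat shock genes and 1 to 6 glucocorticoid genes. The highest of each range came without control replicate 1; without any other single library at most 885 genes, 1 member, 3 genes near the cluster, 2 zinc transporters, 2 copper genes, 3 antioxidant genes, 0 heat shock genes and 2 glucocorticoid genes were called. Over all these omissions, with and without the trend, NUDT21 ranged from -0.096 to 0.46, HSPH1 from -0.027 to 0.43, NR3C1 from -0.025 to 0.51 and ANXA1 from -0.077 to 0.34. Depth limits MT1M and MT1L, at 12 to 32 reads per library.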

Other observations

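Other known inducers of metallothioneins were looked at through 2 further lists. Of 13 heat shock genes tested, 6 were higher and 3 lower in the knockout, with a median of 0.048. Among all genes 18.9% were higher and 14.4% lower. HSPA4L rose by 0.67 (SE 0.12, limma adjusted p = 0.00074) and HSPH1, an HSP110 chaperone, by 0.39 (SE 0.081, adjusted p = 0.0019), while HSPB1, HSP27, fell by 0.36 (SE 0.081, adjusted p = 0.003) and BAG3, an HSP70 cochaperone, by 0.27 (SE 0.083, adjusted p = 0.019). After trend removal 0 of these 4 genes passed (adjusted p = 0.203, 0.943, 0.279 and 0.44). The list then counted 2 higher and 0 lower, against 4.08% and 5.95% of all genes.

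Of 14 glucocorticoid responsive genes, 5 were higher and 2 lower, with a median of -0.012, against 18.9% higher and 14.4% lower among all genes. NR3C1, the glucocorticoid receptor, rose from 3818 ± 407 to 5147 ± 494 normalized counts (SD, n = 3 each; 0.43, SE 0.095, limma adjusted p = 0.0029). After trend removal its difference was 0.0084 (adjusted p = 0.951). TFCP2L1, a transcription factor, rose by 0.78 (SE 0.15, adjusted p = 0.00079) and CRISPLD2, a secreted protein, fell by 0.58 (SE 0.14, adjusted p = 0.006), and both still passed after trend removal (adjusted p = 0.0036 and 0.022, at most 0.034 and 0.109 when 1 library was left out). NFKBIA, an inhibitor of NF-kappaB, fell by 0.38 (SE 0.14, adjusted p = 0.047). Without control replicate 1 its difference was -0.63, and without control replicate 3 it was -0.20 and not called (adjusted p = 0.239), nor was it without any one of control replicate 2 and the knockout libraries. After trend removal NFKBIA missed the threshold (adjusted p = 0.404), and 1 gene of the list was higher and 2 lower.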
